A study of Mus musculus with 14 samples.

Results

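Rods are the photoreceptors of dim light and the most numerous cells of the mouse retina. Each rod carries an outer segment of stacked disks, where an absorbed photon activates transducin and a phosphodiesterase, lowers cyclic GMP and closes cation channels, and its ribbon synapse then releases less glutamate onto rod bipolar cells. The transcription factor Nrl and its partner Nr2e3 switch rod genes on and keep cone genes off, and rods are known for intense aerobic glycolysis and for drawing oxygen from the choroid, the vessel bed outside the retina. The cells described here are the nuclei that the authors labelled as rods from clustered single-nucleus transcriptomes, 41020 of 77676 retinal nuclei in 12 libraries.

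The study deleted *Tgfbr1*, a receptor for TGF-beta, from endothelial cells after birth, and the comparison shows how rods, which were not the target of the deletion, differ between control retinas and retinas with that vascular defect. Whole retinas gave 1 control library and 11 mutant (CKO) libraries, and 2 brain libraries of the series were not used. The CKO mice were *Cdh5CreER;Tgfbr1CKO/-*, with the Cre line written VEcadCreER in some labels, so that they carried 1 floxed and 1 null *Tgfbr1* allele in every cell before recombination, and they received 4-hydroxytamoxifen between postnatal days 3 and 5. The control is labelled wild type, and phenotypically wild-type mice in this study typically carried the Cre and 1 floxed allele beside an intact one. The sources do not say whether the control received 4-hydroxytamoxifen. The Cre driver is specific for endothelial cells. The study's text places the retinal nuclei at postnatal day 14, whereas the labels describe young adults. The number of mice behind each library is also not stated, and p-values therefore measure the spread between these libraries, with the single control assumed to vary as the CKO libraries do.

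*Tgfbr1* itself was detected at a modest level in rods, at 114 CPM (a gene's UMIs scaled to the same total in every library, where a unique molecular identifier, or UMI, marks a captured molecule) in the control from 978 UMIs. The 10 CKO libraries that hold rods lay between 85.4 CPM in CKO replicate 5 and 102 CPM in replicate 3, with a median of 88.3. The control was thus above all 10 CKO libraries, and the log2 change of -0.32 had an unadjusted p of 0.0495 and an adjusted p of 1 by edgeR's quasi-likelihood test with Benjamini-Hochberg adjustment. The gene lies at chr4:47353134-47414931 on the plus strand (GRCm39), and counts taken near the end of a transcript do not test whether an internal exon was deleted. In rods they do not bear on endothelial recombination at all.

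The libraries differ in ways other than genotype. The authors' records give 3 batches, with the control and CKO replicates 1 to 3 in batch 1, CKO replicates 4 and 5 in batch 2 and the others in batch 3, without saying what a batch is. CKO replicates 8 to 11 were made with version 5 of the capture kit and all others with version 4. CKO replicate 4 holds 104 nuclei and 0 rods, with a 95% exact binomial upper limit of 3.48%, so every value per rod rests on 10 CKO libraries. Only 20 retinal nuclei, 13 of them rods, share a barcode sequence with a nucleus of another library. Rods yielded 8604043 UMIs in the control and between 2570278 and 14573996 in the 10 CKO libraries. The median rod held 961 UMIs in the control and 713 in CKO replicate 6 to 2281 in replicate 9, a mean difference of 357.4 UMIs (exact two-sided permutation p = 0.818). With rods of at least 500 UMIs thinned to that depth, which kept 87.0% of control rods and as few as 75.4% in CKO replicate 6 here and in the thinned shares below, the median number of genes was 380 in the control, 361 to 379 in CKO libraries of the version 4 kit, and 400 to 403 with version 5.

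All 4 marker genes of rods were at their highest in the nuclei with the rod label. *Nrl* reached 498 CPM in the control and 332 to 617 in the CKO libraries, *Nr2e3* 832 and 601 to 925, *Gnat1*, the transducin alpha subunit of rods, 571 and 244 to 713, and *Pde6b*, a catalytic subunit of the rod phosphodiesterase, 2013 and 1528 to 1965. Their median over libraries exceeded the next highest of the 11 labelled types by 2.32, 2.43, 1.98 and 2.69 times. That next type was cones for all but *Gnat1*, for which immune cells came next at 274 CPM.

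Rods made up 57.5% of nuclei in the control library (6621 of 11513, 95% exact binomial interval 56.6 to 58.4). In the 11 CKO libraries the share ran from 0% in replicate 4, then 42.3% in replicate 6, to 61.2% in replicate 11, with a median of 50.9%. The control was exceeded by replicates 10 and 11 only, both of the version 5 kit, and the mean difference was -9.75 percentage points (exact two-sided permutation p = 0.333, smallest possible 0.0833). The authors' curation by hand took out some clusters of CKO replicates 4 and 5, and without both the difference was -5.17 points (exact permutation p = 0.5). Among libraries of the control's own kit all 7 CKO libraries were below it and the difference was -15.4 points (exact permutation p = 0.25, smallest possible 0.125), or -8.33 points without replicate 4 (exact permutation p = 0.286), a choice made after the data were seen. Over both kits without replicate 4, also chosen after the data were seen, the median was 52.6% and the difference -4.98 points (exact permutation p = 0.455). Among nuclei with at least 1000 UMIs the control share was 40.5% and the difference shrank to -2.47 points (exact permutation p = 0.917). Within batch 1 the 3 CKO libraries were tightly grouped at 50.6% to 50.9%, all below the control, and the exact permutation p of 0.25 is the smallest that this batch allows.

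**Figure D1:**
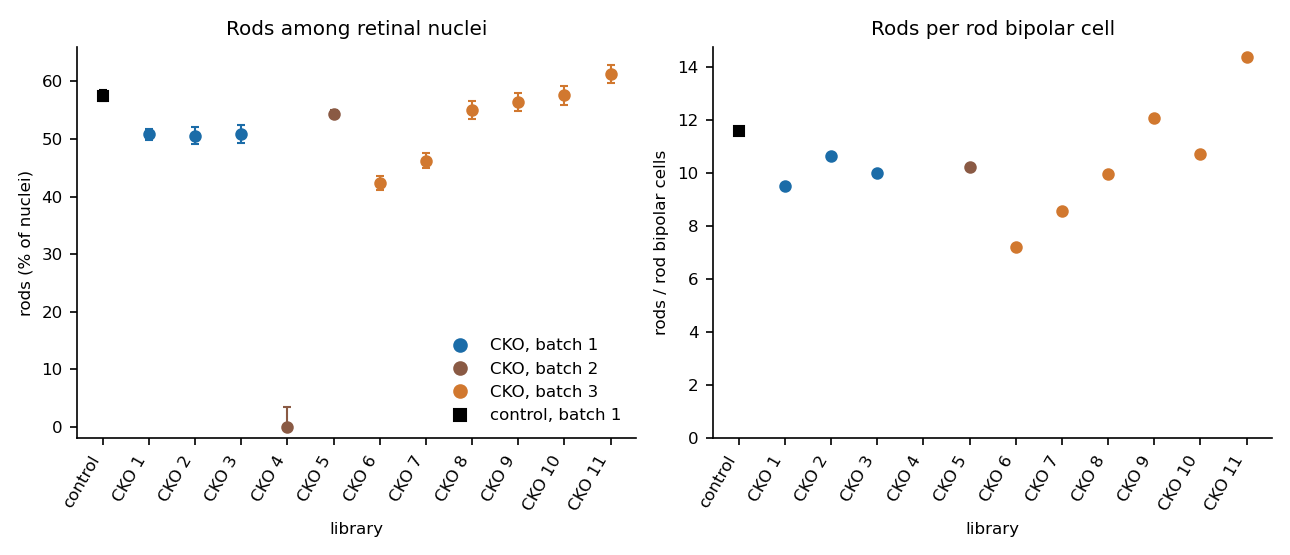
Left, rods as a percentage of all retinal nuclei in each library, with 95% exact binomial intervals that cover counting error only. Right, the number of rods for each rod bipolar cell (no value for CKO replicate 4, which has 0 rods). The control sits at 57.5% and 11.6, above 9 of 11 and 8 of 10 CKO libraries.

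Counting rods against other neurons gave the same picture. The control held 16.1 rods for each cone, and CKO libraries held 8.87 in replicate 6 to 18.2 in replicate 8, with a median of 13.1 (log2 ratio of means -0.29, exact two-sided permutation p = 0.455). For each rod bipolar cell, the interneuron that collects from rods, the control held 11.6 rods and the CKO libraries 7.23 to 14.4, with a median of 10.1 (log2 -0.19, exact permutation p = 0.455). The control was inside the CKO range in both cases. In batch 1 the log2 ratios were -0.37 and -0.21. CKO replicates 6 and 7 had the lowest rods for each cone and for each rod bipolar cell, as well as the shallowest rods. With 1 control no outcome of these permutation tests could have passed 0.05 (smallest possible p 0.0909 for the ratios), and all 3 CKO libraries of batch 1 lay below the control for the share and both ratios.

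Of 3312 genes with a median of at least 50 CPM in rods, 1215 (36.7%) were at their highest in rods among the 11 types, 85 stood at least 2 times above the next type and 0 at least 4 times. These values describe the label and carry no test, because the types were named from such genes. In CPM, which is not scaled to gene length, the 15 highest genes held 14.3% of rod CPM. They were led by the nuclear noncoding RNA *Malat1* (46572 CPM) and the adhesion gene *Cadm2* (19899), then *Dmd* (11177), whose dystrophin anchors the synapse, and *Sag* (9737), the rod arrestin, which ends the light response. Others among the 15 were *Dlg2*, *Rpgrip1*, *March1*, *Syt1*, *Ppp2r2b*, *Pcdh15*, *Pex5l*, *Cadm1* and *Rp1*. *March1* is listed at 0 in every library of batches 1 and 2, where the gene table behind the counts may have differed.

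The genes with the largest ratio to every other type included several of the light response. The largest ratios of median rod CPM to the next type, cones in all 15, belonged to the predicted gene *Gm7546* (3.59, also listed at 0 in batches 1 and 2), *Samd11* (3.31), a repressor partner in photoreceptors, and *Mrpl9* (2.97), a mitochondrial ribosome protein. *Cngb1* (2.72), the beta subunit of the rod cation channel, *Pde6a* (2.70) and *Pde6b* (2.69), the catalytic pair of the phosphodiesterase, and *Slc24a1* (2.61), the rod calcium exchanger, were among them. The others were *BC065403*, *Ebpl*, *A930014D07Rik*, *Nt5e*, *Gramd2*, *Glb1l2*, *Gm14505* and *C2cd6*, from 2.91 down to 2.55.

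Promoters of *Sag*, *Pde6b* and *Cngb1* are shown because they carry letters known from photoreceptor regulation, TAATCC, the core read by Crx and related homeodomain proteins, and TGCTGA, the first part of the Maf element that Nrl can read. Both strands were searched in the 250 bases before each start, with RefSeq promoters of GRCm38.p6, and the motifs cannot overlap each other. Of the 50 genes with the largest ratio, 33 symbols matched with 40 promoters. TAATCC was in 6 of them (15.0%) against 2054 of 32851 promoters in the whole table (6.25%), and TGCTGA in 6 (15.0%) against 5282 (16.1%). Among these 40 promoters that of *Samd11* alone had both (2.5% against 0.962% of all). *Sag*, one of the genes of highest CPM, has a ratio of 1.83 and was not among the 50, and its promoter holds both. The *Sag* window lies at chr1:87731152-87731401 on the plus strand, that of *Pde6b* at chr5:108535989-108536238 on the plus strand and that of *Cngb1* at chr8:96033214-96033463 on the minus strand, by exact match to GRCm39, and all 3 lie outside annotated exons. Capitals mark TAATCC, which is written from the other strand as GGATTA in *Sag*, and also TGCTGA.
Sag: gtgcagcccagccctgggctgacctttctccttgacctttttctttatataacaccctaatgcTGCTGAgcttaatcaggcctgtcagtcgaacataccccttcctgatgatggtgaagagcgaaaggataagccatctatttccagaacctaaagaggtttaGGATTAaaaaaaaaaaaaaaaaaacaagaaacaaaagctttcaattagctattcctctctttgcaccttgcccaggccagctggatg
Pde6b: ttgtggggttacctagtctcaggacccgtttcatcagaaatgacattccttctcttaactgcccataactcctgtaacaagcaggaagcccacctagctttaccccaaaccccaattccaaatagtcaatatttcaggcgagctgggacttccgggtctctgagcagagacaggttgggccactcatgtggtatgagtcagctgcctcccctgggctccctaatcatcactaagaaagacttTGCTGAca
Cngb1: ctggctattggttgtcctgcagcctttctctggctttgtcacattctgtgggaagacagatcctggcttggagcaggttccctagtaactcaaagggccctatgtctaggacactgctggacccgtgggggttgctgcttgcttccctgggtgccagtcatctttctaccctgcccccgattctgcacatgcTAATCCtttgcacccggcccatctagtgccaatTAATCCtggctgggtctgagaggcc

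*Antxr2* was higher in rods of CKO retinas than in the control and was the only gene that passed the edgeR test across all genes. It encodes a cell surface receptor for anthrax toxin that binds and takes up collagen, and lies at chr5:98030642-98179263 on the minus strand (GRCm39). Control rods held 36 UMIs, or 4.18 CPM, while CKO rods held 61.6 CPM in replicate 7 to 218 CPM in replicate 5, with a median of 128. All 10 CKO libraries were far above the control and no library came near it, with 154, 196 and 112 CPM in replicates 1, 2 and 3 of the control's own batch. The log2 change was 5.19 (SE 0.57, adjusted p = 0.0254 by edgeR's quasi-likelihood test with Benjamini-Hochberg adjustment, batch and kit as covariates). Being under 5 CPM in the control, *Antxr2* reached the tested range through the CKO libraries alone, so the filter favoured its being higher. In control rods the 36 UMIs came from 33 nuclei. Thinned to 500 UMIs, *Antxr2* was seen in 0.123% of control rods and in 2.61% (replicate 7) to 9.15% (replicate 5) of CKO rods, against 0.498% and 4.79% to 18.5% without thinning. Müller glia had 1.14% in the control and 0.704% to 2.21% in CKO at 500 UMIs, and 7.46% and 4.84% to 26.7% without thinning. At 500 UMIs cones had 2.63% and 2.99% to 8.59%, and rod bipolar cells 23.1% and 17.5% to 30.0%.

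Of 9007 genes tested in rods with edgeR, 1 was higher (0.0111%) and 0 were lower (0.0%) in CKO at an adjusted p under 0.05. At an unadjusted p under 0.05, 205 were higher (2.28%) and 105 lower (1.17%), and the median log2 change of all 9007 genes was 0.00 when rounded (4480 were positive). DESeq2 called 44 higher and 3 lower. The edgeR count depends on single libraries, since it was 0 without CKO replicate 2, 8, 9, 10 or 11, where *Antxr2* had adjusted p-values of 0.0600, 0.101, 0.0884, 0.0621 and 0.0849. It was 4 higher and 3 lower without replicate 1, 8 and 1 without replicate 3, 17 and 2 without replicate 6, 19 and 2 without replicate 7, and 18 and 2 without replicates 6 and 7 together, a choice made after the data were seen. *Antxr2* also missed the threshold with no covariate (adjusted p = 0.0652) and with *Xist* above or below 1000 CPM as an added covariate (0.0944), which was chosen after the data were seen because *Xist*, the noncoding RNA of the inactive X chromosome, was high in the control and in CKO replicates 1, 2 and 7. The 6 sex-linked genes had a median log2 change of 4.44 and 0 passed with all rods, with Y-linked *Uty* at 1.63 CPM in the control and a CKO median of 251. The log2 change of *Antxr2* was between 4.99 and 7.68 in 22 alternatives, and its adjusted p ran from 3.87e-26 to 0.101.

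**Figure D2:**
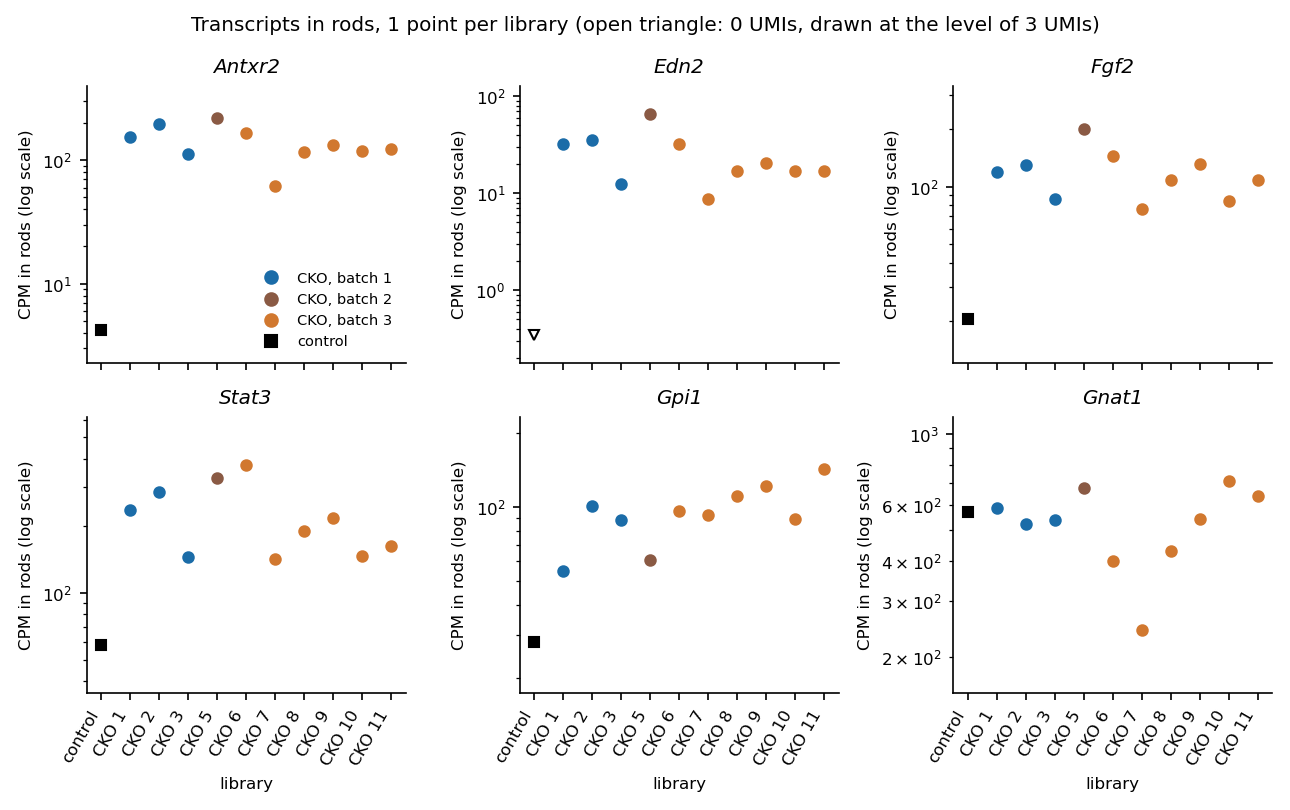
CPM in rods on log axes, 1 point per library, for *Antxr2*, *Edn2*, *Fgf2*, *Stat3*, *Gpi1* and *Gnat1*. The control square lies below all 10 CKO circles for the first 5 genes (20.3 CPM against 76.4 to 199 for *Fgf2*) and inside their range for *Gnat1* (571 against 244 to 713), and the open triangle marks 0 UMIs of *Edn2*, drawn at the level of 3 UMIs.

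The *Antxr2* response was larger in rods than in the 3 types tested against them. Control rods had the lowest level of any neuron, and the CKO median brought them to about that of CKO cones. Cones went from 46.1 CPM in the control to a CKO median of 137, rod bipolar cells, which hold the most, from 491 to 538, and Müller glia, the radial glia of the retina, from 21.2 to 50.3. Among the remaining neurons the control and CKO median were 84.3 and 121 in cone bipolar cells, 29.7 and 54.9 in GABAergic and 19.5 and 55.7 in glycinergic amacrine cells, 30.7 and 73.1 in horizontal cells, and 19.8 and 45.2 in retinal ganglion cells. The log2 change in rods exceeded that in cones by 3.52 (adjusted p = 0.00696), that in rod bipolar cells by 5.18 (adjusted p = 0.000432) and that in Müller glia by 4.03 (adjusted p = 0.000821), by edgeR's quasi-likelihood test of the difference with Benjamini-Hochberg adjustment. Each of these passed in all 12 alternatives run for it.

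**Figure D3:**
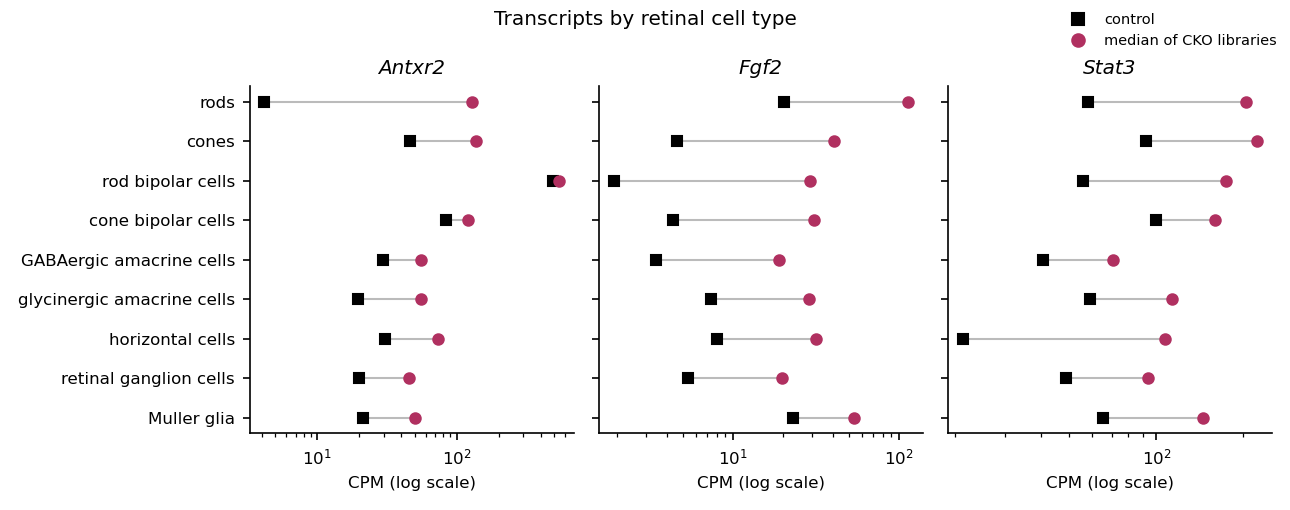
CPM of *Antxr2*, *Fgf2* and *Stat3* by cell type on log axes, the square for the control library and the circle for the median of CKO libraries. Among types with *Antxr2* above 0 in the control, the widest line belongs to rods, from 4.18 to 128 CPM, while rod bipolar cells go from 491 to 538. Astrocytes and immune cells are not drawn. Astrocytes had 0 CPM in the control and a CKO median of 42.8. Among genes compared across types, the lowest value above 0 in control astrocytes was 32.0 CPM.

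Few other genes had a CKO effect in rods that differed from that in a second type. Against cones 6 of 9681 genes (0.062%) had a more positive CKO effect in rods and 0 (0.0%) a more negative one by edgeR, with 220 and 226 at an unadjusted p under 0.05. *Aldoa*, the glycolytic aldolase, had 19.8 CPM in control rods and a CKO median of 74.5, whereas cones had 60.8 and 53.2 (difference of log2 changes 2.49, adjusted p = 0.00506). The antisense transcript *Gm15983* differed by 1.87, the noncoding RNAs *F630040K05Rik* by 2.05 and *Gm9869* by 2.51, all more positive in rods. *Gm12394*, a predicted gene, was lower in CKO than in control in both types, with 109 CPM against 53.2 in rods and 128 against 17.5 in cones, a difference of 2.10. *Gm12394* was lower in CKO in other types as well, without a test, with 154 and 48.4 CPM in Müller glia and 19.6 and 11.1 in rod bipolar cells. Higher CKO medians than controls were seen in other types for 4 transcripts, also without a test. *Aldoa* had 14.6 and 81.9 CPM and *F630040K05Rik* 51.6 and 129 in Müller glia. In rod bipolar cells *Gm15983* had 4.30 and 23.3 and *Gm9869* 5.26 and 28.7. All 6 passed in all 12 alternatives, and the count was 11 positive and 1 negative without CKO replicate 1 and 8 and 2 without replicate 2.

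Against rod bipolar cells *Antxr2* was the 1 call of 10021 genes (0.00998%), with 0 (0.0%) more negative and 175 and 263 at an unadjusted p under 0.05 by edgeR. Without a CKO library the positive count was 4 (replicate 1), 3 (6 or 7) or 2 (11), and 3 without replicates 6 and 7 together. Against Müller glia 2 of 10810 genes (0.0185%) were more positive in rods, 0 (0.0%) more negative, and 301 and 378 had an unadjusted p under 0.05. Beside *Antxr2*, *Tox*, a chromatin factor, stood at 1.16 CPM in control rods (10 UMIs) and a CKO median of 21.3, against 1556 and 1303 in Müller glia (difference 4.09, adjusted p = 0.0230 by edgeR). CKO replicates 6 and 7 held 0.364 and 0.704 CPM of *Tox* in rods, below the control, and the call was lost without replicate 2 and with the kit as the only covariate (adjusted p up to 0.856). The count was 3 without replicate 1, 1 without replicate 2, 3 positive and 3 negative without replicate 3, and 4 without replicate 6, 7 or both. DESeq2 was not run on these differences.

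Of the photoreceptor stress genes, *Edn2*, *Fgf2* and *Stat3* had the control below every CKO library without passing the edgeR test. *Edn2*, an endothelin that photoreceptors release under stress, had 0 UMIs in 6621 control rods, while CKO rods held 8.80 CPM (replicate 7) to 65.4 CPM (replicate 5), with a median of 18.8. All 10 CKO libraries were above the control, and the median was at least 53.8-fold higher, taken against a floor of 3 UMIs in the control rods (unadjusted p = 4.49e-05, adjusted p = 0.0542 by edgeR with Benjamini-Hochberg adjustment, 0.000616 by DESeq2). At 500 UMIs *Edn2* was seen in 0.434% to 3.22% of CKO rods, in 0% to 0.642% of CKO rod bipolar cells, in 0% to 0.697% of CKO cones and in 0% to 1.40% of CKO Müller glia. In replicate 3 the share in cones, 0.539%, was above that in rods, 0.455%. Unthinned shares were 0.861% to 7.06% in rods, at medians of 713 to 2281 UMIs, and 0% to 5.08% in rod bipolar cells, at 1870 to 7869. The control had 0% in all 4 types.

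*Fgf2*, a survival factor for photoreceptors, had 20.3 CPM in control rods (175 UMIs) and 76.4 (replicate 7) to 199 (replicate 5) in CKO rods, with a median of 114. The groups did not overlap (log2 change 2.45, SE 0.37, adjusted p = 0.0542 by edgeR, 1.96e-09 by DESeq2). At 500 UMIs it was seen in 1.05% of control and 3.75% to 9.71% of CKO rods, against 0.0504% and 0.177% to 1.29% of rod bipolar cells, 0.152% and 0.694% to 2.43% of cones, and 1.16% and 1.16% to 4.02% of Müller glia. The antisense gene *Fgf2os* went from 1.51 CPM (13 UMIs) to 15.5 to 78.2 (log2 4.18, adjusted p = 0.0542 by edgeR). Being under 5 CPM in the control, *Fgf2os* reached the tested range through the CKO libraries alone. *Fgf2os* (chr3:37389481-37403889, minus strand) overlaps *Fgf2* (chr3:37402473-37464257, plus strand), and the sources do not say whether strand was used in the counting, so their UMIs may be shared. *Stat3*, the transcription factor of cytokine signals, had 58.0 CPM in the control and 142 to 375 in CKO rods, with a median of 204 and no overlap (log2 1.93, SE 0.49, adjusted p = 0.608 by edgeR, 0.0022 by DESeq2).

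In the whole stress list 10 of 24 genes were abundant enough to test, and 0 passed in either direction by edgeR. At an unadjusted p under 0.05, 4 were higher (*Edn2*, *Fgf2*, *Stat3* and *Cebpd*) and 1 lower (*Bax*), against 2.28% and 1.17% of all genes, and 5 of the 10 log2 changes were positive. *Edn2* and *Cebpd*, at 0 UMIs in the control, reached the tested range through the CKO libraries alone, so the filter itself favoured their being higher. The control lay below all 10 CKO libraries for 3 genes, compared with 420 of all 9007 (4.66%), and above all for 0 of them, compared with 411 (4.56%). Without CKO replicates 6 and 7, a choice made after the data were seen, the background was 824 genes below (9.15%) and 562 above (6.24%), and 4 stress genes were below. The list's summed level was 197 CPM in the control and 244 (replicate 7) to 736 (replicate 5) in CKO rods, and *Stat3* was its most abundant gene. *Cebpd*, an acute phase transcription factor, had 0 UMIs in the control and 0 to 13.0 CPM in CKO rods, the median at least 14.3-fold above the floor. *Bax*, a death effector, had 10.5 CPM in the control and 1.45 to 14.5 in CKO rods. The unfolded protein genes *Atf4*, *Ddit3*, *Hspa5* and *Xbp1* had controls inside the CKO range, and the list's median log2 change was 0.10, unchanged with its 2 zero-control genes at their bound, against 0.00 for all genes.

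The same transcripts clustered in the same CKO nuclei. Among CKO rods of 1000 to 2000 UMIs, a range chosen after the data were seen, 1271 had a UMI of *Antxr2* and 8573 had none. Median depths per library ran from 1282.5 to 1775.0 UMIs with it and from 1276.0 to 1690.5 without. Rods with it were still the deeper in every library, with medians over libraries of 1509.75 and 1355.75 UMIs. Across libraries the median level of *Edn2* was 58.8 CPM in rods with *Antxr2* and 12.5 in those without, and it was higher with *Antxr2* in 10 of 10 libraries. *Fgf2* stood at 291 and 95.7, *Stat3* at 407 and 178, and *Gnb3*, a G protein beta subunit of cones and bipolar cells, at 482 and 144, each higher in 10 of 10 libraries. Rod genes did not follow, with *Gnat1* at 571 and 558 (higher in 3 of 10) and *Nr2e3* at 564 and 694 (1 of 10). In this depth range the rod bipolar genes *Trpm1* and *Grm6* had 0 UMIs in rods with *Antxr2*, while the rod bipolar list without *Prkca* was higher with *Antxr2* in 3 of 10 libraries. The cone list without *Thrb*, *Gnb3* and *Cngb3* was higher in 2 of 10, the Müller glia list in 6 and the immune list in 5. These 4 genes, abundant enough in rods for the gene test, were left out of the sums, a choice made after the data were seen. Over CKO rods of any depth the gap in depth was larger, with medians over libraries of 1540.75 UMIs with *Antxr2* and 1039.5 without. There the rod bipolar genes were higher with *Antxr2* in 4 of 10 libraries and cone genes in 7 (median 15.3 against 8.00 CPM). Müller glia genes were higher in 8 (32.9 against 9.41) and immune genes in 10 (33.0 against 24.7). *Gnat1* was then higher in 9 of 10 libraries and *Nr2e3* in 0. Cells of a library are not replicates, and these values are a description without a test.

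**Figure D4:**
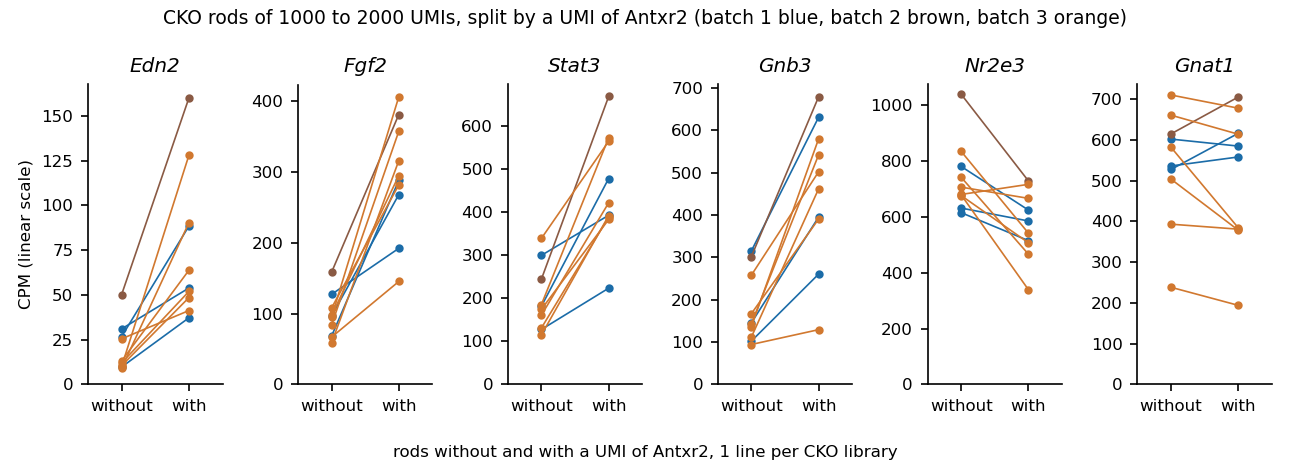
CPM of 6 genes in CKO rods of 1000 to 2000 UMIs, without and with a UMI of *Antxr2*, joined by 1 line per library. *Edn2*, *Fgf2*, *Stat3* and *Gnb3* are higher with *Antxr2* in 10 of 10 libraries, *Nr2e3* in 1 and *Gnat1* in 3.

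Glycolytic genes had positive log2 changes in 15 of 18 cases, and none passed the edgeR test. Of 22 genes 18 were tested, 0 passed in either direction, and 9 were higher and 0 lower at an unadjusted p under 0.05 (*Hk2*, *Gpi1*, *Pfkl*, *Pfkp*, *Aldoa*, *Tpi1*, *Pgk1*, *Pgam1* and *Eno1*), against 2.28% and 1.17% of all genes. The control lay below all 10 CKO libraries for 6 of the 18 and above all for 0, against 4.66% and 4.56% of all genes. Without CKO replicates 6 and 7, a choice made after the data were seen, it lay below for 11, against 9.15% of all genes. The median log2 change was 0.59, against 0.00 over all genes tested. The summed level was 1079 CPM in control rods and 1276 (replicate 7) to 2535 (replicate 11) in CKO rods, so that every CKO library was above the control. DESeq2 gave adjusted p-values of 0.00213 for *Gpi1* and 0.00102 for *Pfkl*. *Tpi1*, counted among the 9 higher genes and the 6 with the control below, had 1 UMI in control rods. That gene reached the tested range through the CKO libraries alone.

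*Gpi1*, which interconverts glucose and fructose phosphates, had 28.2 CPM in control rods and 54.8 to 143 in CKO rods, with a median of 94.6 (log2 1.49, SE 0.33, adjusted p = 0.370 by edgeR). *Pfkl*, a subunit of the phosphofructokinase that gates the pathway, had 17.1 CPM and 32.6 to 66.5 (log2 1.68, adjusted p = 0.274 by edgeR). The control stood apart from all CKO libraries for both genes. *Hk2*, the hexokinase typical of photoreceptors, had 105 CPM and 87.6 to 238, and *Pfkp* 23.9 and 15.1 to 251, with overlap through replicates 10 and 7. *Tpi1* had 1 UMI in the control and a CKO median of 8.37 CPM, a ratio of 72.0 with a counting interval of 12.9 to 2840. *Ldha*, which makes lactate, had 206 CPM in the control and 85.9 to 386 in CKO rods. *Ldha*, *Pfkp* and *Tpi1* were lowest in CKO replicate 7 and highest in replicate 11.

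Of 23 hypoxia response genes 14 were tested, 13 had a positive log2 change and 0 passed in either direction by edgeR. At an unadjusted p under 0.05, 6 were higher and 0 lower, against 2.28% and 1.17% of all genes, among them *Pdk1*, the kinase that keeps pyruvate from mitochondria, *P4ha1*, a collagen hydroxylase, and *Egln1*, the oxygen sensor that marks HIF for decay. *Pdk1* had 10.2 CPM in the control and 12.4 to 67.4 in CKO rods, *P4ha1* 86.5 and 105 to 168, and *Egln1* 36.0 and 40.6 to 102, with no overlap. The control lay below all CKO libraries for 4 genes, against 4.66% of all genes, and above all for 1, against 4.56%. That gene was *Ndrg1*, at 539 CPM against 387 to 535. DESeq2 gave *Pdk1* an adjusted p of 0.0178. The median log2 change was 0.57, the same with *Bnip3*, at 0 UMIs in the control, taken at its bound. *Bnip3*, 1 of the 6 higher genes, reached the tested range through the CKO libraries alone. The summed level did not separate the groups, with 1779 CPM in the control and 1514 to 2181 in CKO rods, and *Hif1a*, the most abundant member, also overlapped. *Vegfa*, the signal from hypoxic tissue to vessels, was not among the genes tested, with 1 UMI in control rods and at most 20.1 CPM in CKO rods, in replicate 11.

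Of 21 phototransduction genes 20 were tested, and by edgeR 0 passed in either direction, with 0 higher and 1 lower (*Pdc*, phosducin) at an unadjusted p under 0.05, against 2.28% and 1.17% of all genes, and a median log2 change of -0.10, with 2 of 20 log2 changes positive. *Gnat1* had 571 CPM in the control and 244 (replicate 7) to 713 (replicate 10) in CKO rods, and overlapped. The control was above all 10 CKO libraries for 3 genes, *Pde6b*, the channel subunit *Cnga1* (1160 CPM against 929 to 1145) and *Gngt1*, the rod transducin gamma subunit (1752 CPM against 569 to 1748), and below all for 0, against 4.56% and 4.66% of all genes. Summed, the list had 30372 CPM in the control and 23460 (replicate 8) to 33921 (replicate 5) in CKO rods, with 2 of 10 libraries above the control. *Guca1a*, a guanylate cyclase activator too low to test, had 11.7 CPM in the control and 0 to 11.3 in CKO rods.

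All 15 photoreceptor transcription factors were tested with edgeR, 0 passed, and 5 of 15 log2 changes were positive. *Nr2e3* alone was lower at an unadjusted p under 0.05 (log2 -0.34, p = 0.0473, adjusted p = 1), against 1.17% of all genes. The median log2 change was -0.14. *Nrl* had a log2 change of -0.34 as well (SE 0.20), and its control of 498 CPM was below CKO replicate 5 only. *Crx*, which drives photoreceptor genes at large, had 613 CPM in the control and 444 to 787 in CKO rods, and overlapped. The control was above all CKO libraries for *Rorb* (1111 CPM against 694 to 1059) and *Prdm1* (310 against 192 to 298), which acts in the choice between photoreceptor and bipolar fate. Of the 4 rod markers 0 had a positive log2 change. No member of the list had the control below all CKO libraries, and over all genes the shares above and below were 4.56% and 4.66%.

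In the outer segment and cilium 20 of 20 genes were tested with edgeR, 0 passed and 0 had an unadjusted p under 0.05, with a median log2 change of 0.01. *Rpgr*, a gatekeeper of the connecting cilium, had 345 CPM in the control and 366 to 485 in CKO rods, without overlap, and *Prph2*, which shapes disk rims, had 1353 and 1059 to 1558. The 6 visual cycle genes, which recycle retinoid, had a median of -0.14 and 0 calls at either threshold, with 1 of 6 log2 changes positive. *Rdh14*, a retinol dehydrogenase, had the control above all CKO libraries (18.5 CPM against 1.06 to 18.3), and *Abca4* overlapped at 1670 CPM and 1599 to 1953. In the ribbon synapse 20 of 20 genes were tested, 0 passed, and the median was 0.00 when rounded. The calcium channel subunit *Cacna2d4* (539 CPM against 542 to 690) and *Egflam*, the pikachurin of the synaptic cleft (923 against 935 to 1173), had the control just below all CKO libraries, while *Cplx3*, a complexin at 3.25 CPM, was the 1 gene lower at an unadjusted p under 0.05. Of all genes 4.66% had the control below every CKO library and 1.17% were lower at that p.

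Other housekeeping programs of rods showed 0 calls by edgeR at either threshold. Of all genes 2.28% were higher and 1.17% lower at an unadjusted p under 0.05, so that 0 calls in short lists is near that share. The programs were nuclear architecture (10 of 12 tested, median log2 change 0.02), which in mouse rods is inverted with heterochromatin at the center, nuclear genes of the respiratory chain (18 tested, -0.09) and the circadian clock (10 tested, -0.05). Transcripts of the mitochondrial genome, mostly absent from nuclei, had 5 of 13 genes tested, a median of 0.40 and a sum of 61.8 CPM in the control against 2.11 (replicate 7) to 88.6 (replicate 10). *Lmna*, the lamin A gene whose absence marks that architecture, had 0 UMIs in the control and at most 1.04 CPM in CKO rods, while *Lbr* had 19.2 CPM and 12.7 to 28.3. Immediate early genes (6 tested, -0.28) included *Nr4a1*, with 13.4 CPM in the control and a CKO median of 29.4, and the list summed to 52.2 CPM in the control and 41.2 to 222 in CKO rods. Of 26 interferon and MHC class I genes 3 reached the tested range (median log2 change 0.79, summed level 57.5 CPM and 33.1 to 87.0), and *B2m* had 0 UMIs in the control and at most 1.37 CPM in CKO rods. In the TGF-beta pathway 6 of 18 genes were tested, and *Tgfbr1* alone had an unadjusted p under 0.05, against 1.17% of all genes lower. The median log2 change was 0.12, and the ligands *Tgfb1*, *Tgfb2* and *Tgfb3* had 3, 4 and 6 UMIs in the control.

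Among the remaining genes of smallest p, 3 were higher in every CKO library, and all genes of this paragraph were picked by their p-values. Of all genes tested, 4.66% had the control below all 10 CKO libraries and 4.56% had it above all 10. *Acoxl*, an acyl-CoA oxidase relative, had 17.2 CPM in the control and 25.4 to 60.2 in CKO rods (log2 1.67), *Fhad1* 3.84 and 16.4 to 48.1 (log2 2.82), and *Gm15983*, a noncoding RNA antisense to *Eef2kmt*, 17.9 and 60.5 to 131 (log2 2.08). Each had an adjusted p of 0.0542 by edgeR. *Fhad1*, under 5 CPM in the control, reached the tested range through the CKO libraries alone, so the filter favoured its being higher. In the other direction *Gm17167*, a noncoding RNA, had 141 CPM in the control and 20.1 to 52.9 in CKO rods (log2 -1.81, adjusted p = 0.0542 by edgeR), and *Atxn2l*, an RNA-binding protein of stress granules, had 94.0 and 4.58 to 67.7 (log2 -1.57, adjusted p = 0.119 by edgeR). The calcium channel *Itpr1* (48.9 CPM against 26.5 to 44.2) and *Zfp951* (27.4 against 3.11 to 12.7) also had the control above all CKO libraries, whereas *Llgl2*, a polarity protein, had 345 CPM against 115 to 368, with replicate 5 above the control. The 7 genes at adjusted p = 0.0542, *Edn2*, *Fgf2* and *Fgf2os* included, passed at 0.0441 with another edgeR scaling. Of 22 alternatives, however, *Acoxl* passed in 7 and each of the others in 8, and they missed the threshold in the rest.

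Genes used as markers of other cells had UMIs in the rod sums, at levels that differed between lists. Of 14 cone genes 3 were tested, with a summed level of 1531 CPM in the control and 1703 to 1966 in CKO rods, above the control in 10 of 10 libraries. Most of it was *Thrb*, a thyroid hormone receptor (1340 CPM in the control), and 7 of 14 cone genes, among them *Gnat2*, were under 5 CPM in all libraries. *Gnb3* had 62.2 CPM and 95.1 to 397 (log2 1.75, adjusted p = 0.871 by edgeR), without overlap. *Thrb* also had the control below every CKO library, whereas *Cngb3*, the other gene tested, had it above every one. Over all genes the shares below and above were 4.66% and 4.56%. Of 8 rod bipolar genes *Prkca* alone was tested, at 1134 CPM against 988 to 1206, and the other 7, *Trpm1* and *Grm6* included, were under 5 CPM in every library. The 10 Müller glia genes summed to 6.51 CPM in the control and 0.364 (replicate 6) to 153 (replicate 10) in CKO rods, led by *Glul*. The 12 immune genes summed to 29.9 and 5.28 to 39.1, with 10 of 12 under 5 CPM in all libraries. Among the others, amacrine genes summed to 53.6 and 40.1 to 85.0, endothelial genes to 30.9 and 24.3 to 45.9, pigment epithelium genes to 35.4 and 14.6 to 50.0, and ganglion cell genes to 5.00 and 1.06 to 63.2. Cone bipolar genes summed to 5.81 and 0.274 to 16.8, horizontal cell genes to 1.05 and 1.46 to 18.8, astrocyte genes to 3.60 and 0 to 9.47, pericyte genes to 1.28 and 0 to 4.39, and progenitor genes to 6.16 and 1.24 to 8.21. The part that such transcripts play in the results was not tested. A planned fit on rods without a UMI of any cone, rod bipolar, Müller glia or immune list gene does not answer this, since those lists hold *Thrb*, *Prkca* and *Gnb3*, which have many UMIs in rods. It kept 10.2% of control rods and 1.48% to 13.9% of CKO rods, with a lower median depth in every library, and left 37 and 34 rods in CKO replicates 9 and 11, under the minimum of 50 used elsewhere. By edgeR 9 genes were higher and 0 lower in it, among them *Antxr2*, *Stat3* and the Y-linked *Uty* and *Eif2s3y*.

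Hemoglobin transcripts, which belong to red blood cells, had the control below every CKO library in the rod sums, and passed with DESeq2 but not with edgeR. All 4 genes were higher at an unadjusted p under 0.05 by edgeR, against 2.28% of all genes. All 4 also had the control below every CKO library, against 4.66% of all genes. Their median log2 change was 5.45, and 0 passed. Each was under 5 CPM in the control and reached the tested range through the CKO libraries alone. DESeq2 called all 4, with adjusted p-values of 2.12e-06 for *Hba-a2* and 0.000479 for *Hbb-bs*. Their summed level was 3.25 CPM in control rods and 59.1 (replicate 3) to 455 (replicate 5) in CKO rods. *Hbb-bs* had 1.98 CPM in the control and 31.3 to 228 in CKO rods, *Hba-a1* 0.465 and 9.38 to 101, and *Hbb-bt* 1 UMI in the control, a ratio of 138 with a counting interval of 24.7 to 5440. Other types had higher CKO medians too, without a test, with *Hbb-bs* at 0 in the control and 39.6 CPM in rod bipolar cells, 0 and 67.8 in Müller glia, and 2.67 and 82.2 in horizontal cells. The alpha genes *Hba-a1* and *Hba-a2* and the beta genes are near-identical copies whose reads may be split between them. The UMIs of *Hbb-bs* were spread unevenly over rods, and in several libraries 1 nucleus held most of them. The richest nucleus held 315 of 579 in replicate 1, 76 of 122 in replicate 2 and 1568 of 2947 in replicate 5. It held 189 of 257 in replicate 6, 80 of 148 in replicate 7 and 561 of 1042 in replicate 8. Its part was smaller in replicates 3 (8 of 90), 9 (81 of 522), 10 (80 of 308) and 11 (185 of 482). In CKO rods of 1000 to 2000 UMIs the hemoglobin genes had a median of 28.4 CPM with an *Antxr2* UMI and 44.6 without, and were higher with it in 3 of 10 libraries.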

How the data were processed

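Single nuclei of whole retinas were sequenced with PIPseq. The deposited values are whole UMI counts, which the authors made with PIPseeker, CellBender for background and SOLO for doublets, followed by manual curation. They named cell types from established markers after integration. The labels name mm10 and the study's methods GRCm39. The barcode, gene name and display files were used for order only or not at all, and brain files were left out.

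Counts were summed over rods per library. Libraries with at least 50 rods and genes with a mean of at least 5 CPM and UMIs in batches 1 and 3 were tested with edgeR 4.0.16 (quasi-likelihood, TMM, batch and kit as covariates, Benjamini-Hochberg threshold 0.05, limma 3.58.1, R 4.3.3). A gene under 5 CPM in the control could enter the test only through the CKO libraries. *Antxr2*, *Edn2*, *Fgf2os*, *Fhad1*, *Cebpd*, *Bnip3*, *Tpi1* and the hemoglobin genes did so. Differences between types were tested as genotype by type terms. Shares and ratios were compared by exact two-sided permutation of libraries. Alternatives were DESeq2 1.42.0, other scaling, filters, covariates and subsets of nuclei, genes or libraries, with several added after the data were seen. The single control is assumed to vary as the CKO libraries do. Scripts were tested on simulated data, whose spread was fixed and may differ from that of the libraries. There the edgeR test in rods recovered 3 of 46 genes changed 2-fold and 53 of 58 changed 4-fold. A list with 0 calls is therefore not shown to be unchanged. Summaries used Python 3.11.15, numpy 2.4.6, scipy 1.17.1 and pandas 2.3.3, with figures from matplotlib 3.10.9. A list's change was read as counts of members past the threshold and a median, without a set test.

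The members and the 31 gene lists were chosen with earlier results of these data known. Genes could be named if they were in a list, among the 10 of smallest p in each direction past the threshold in rods (the 5 of smallest p where fewer than 5 passed), among the 15 of highest rod CPM or the 15 of largest ratio to another type, or among the 5 of smallest p in each direction in a test between types.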

Additional observations from a re-analysis of the deposited data

Results flagged for a closer look

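Among 54 groups of 10 CKO libraries, 8 held a library far from the others, where chance alone would mark about 1 in 20 groups. CKO replicate 5 stood apart for *Fgf2os* (78.2 CPM, next 38.6), *Fhad1* (48.1, next 33.1), *Llgl2* (368, next 240.2), *Edn2* (65.4, next 35.0), the sum of photoreceptor transcription factors (14210, next 11601) and the sum of cone genes (1966, next 1830). Replicate 7 was far below the others for the sum of interferon and MHC class I genes (33.1 CPM, next 64.6). Replicate 11 was far above them for the sum of cone bipolar markers (16.8 CPM, next 8.80).

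The effect of genotype differed between cell types by edgeR's test of the difference for 9 values, given as log2 differences. Rods against cones gave *Gm15983* 1.87, *F630040K05Rik* 2.05, *Gm12394* 2.10, *Aldoa* 2.49, *Gm9869* 2.51 and *Antxr2* 3.52. Rods against rod bipolar cells gave *Antxr2* 5.18, and rods against Müller glia gave *Antxr2* 4.03 and *Tox* 4.09.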

How the results depend on the processing

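Among the leading results, 52 values under an alternative kept their side of the threshold or their size, 30 became stronger, 9 weaker and 1 shifted. Among single genes the numbers were 362, 67 and 7 for same, stronger and weaker, and 0 changed direction. The number of genes higher in CKO rods, 1 by edgeR, was 44 with DESeq2, 7 with RLE factors, 8 without the filter on low genes, 0 without covariates, 9 in the few rods without a UMI of cone, rod bipolar, Müller glia or immune list genes, 7 without sex chromosomes, and, among alternatives added after the data were seen, 0 with *Xist* as a covariate and 18 without CKO replicates 6 and 7. Leaving out one CKO library at a time gave 0 to 19. The number lower, 0 by edgeR, was 3, 1 and 2 with DESeq2, RLE factors and no filter, 1 without sex chromosomes, 2 without replicates 6 and 7, and 0 to 3 with one library left out. Genes with the control below all CKO libraries numbered 824 without replicates 6 and 7. For differences between types, leaving out one library gave 6 to 12 genes against cones, 1 to 4 against rod bipolar cells and 1 to 6 against Müller glia. Without replicates 6 and 7 there were 3 against rod bipolar cells and 4 against Müller glia, and 1 against Müller glia with the kit as the only covariate. The cause was not tested. No paired analysis was possible because the groups share only replicate number 1. Genes with a mean under 5 CPM were left out of the main test, while 19012 genes were tested without that filter, down to 10 UMIs in all.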
